A study of Mus musculus with 18 samples.

Results

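The dystrophin-glycoprotein complex was followed through 9 of its genes, Dmd, Utrn, Dag1, Sgca, Sgcb, Sgcd, Sgce, Dtna and Sntb1, chosen by name from the 35275 genes of the deposited table. All 9 have a row, with values for each of 18 RNA-seq libraries of C2C12, a mouse myoblast line whose cells fuse into myotubes when serum is withdrawn. The cultures were controls (genotype given as wild type), cells labelled MUNC spliced overexpressing and cells labelled MUNC genomic overexpressing, and the labels describe all of them as PAX7 negative. The noncoding RNA MUNC comes from a locus near Myod1. Each of the 3 kinds of cell was harvested in growth medium with 20% fetal bovine serum (GM) and after 3 days of differentiation in 2% horse serum (DM3), with 3 biological replicates per group. The labels do not say how MUNC was introduced, whether control cells carried a vector, or whether each overexpressing line is 1 clone. A difference between lines therefore cannot be told apart from a difference between the cells from which they were grown. No row carried the name MUNC, so its level was not analysed here.

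The complex links the actin cytoskeleton of a muscle fibre to the extracellular matrix. Dystrophin (Dmd), or its relative utrophin (Utrn), binds actin at one end and dystroglycan at the other. Dystroglycan (Dag1) binds laminin outside the cell, and the sarcoglycans (Sgca, Sgcb, Sgcd, Sgce and their relatives) form a subcomplex in the membrane that steadies it. Dystrobrevins such as Dtna and syntrophins such as Sntb1 attach on the cytoplasmic side and carry signalling proteins. Mutations in Dmd cause Duchenne muscular dystrophy, and mutations in sarcoglycan genes cause limb-girdle dystrophies or, for SGCE, a movement disorder.

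Levels are given in FPM, gene reads divided by a factor for library size, and between genes as FPM per kb of annotated exon. Depth ran from 38416702 to 68788327 reads per library. A change was called where limma gave a Benjamini-Hochberg adjusted p under 0.05 over 13869 genes, on log2(FPM + 1), a scale that understates changes of genes near 0. All log2 changes below are on this scale, with the standard error (SE) of the fit. The cells kept a myoblast profile in part. The 12 myoblast markers summed to between 544 and 2486 FPM per library, but Pax7 and Myod1 averaged 0.00569 and 0.0285 FPM in control GM. The 12 myotube markers summed to 13.1 to 32.6 FPM in control GM and 12.1 to 23.3 FPM in control DM3. They summed to 33.0 to 57.5 FPM in MUNC spliced GM, 9.26 to 14.2 FPM in MUNC genomic GM and 78.1 to 146 FPM in MUNC genomic DM3. In MUNC spliced DM3 the sums were 1188, 215 and 284 FPM in replicates 1 to 3, so replicate 1 stood apart. Myh8, one of these markers, had no read in any control or MUNC genomic library. Of 11 myotube markers tested, 3 were called higher and 1 lower in control DM3 than in control GM (29.6% and 28.6% of all genes). Below, differentiation therefore names the change from GM to DM3 and does not say that control cells formed myotubes. The 8 fibroblast markers, led by collagen genes that C2C12 cells make themselves, summed to 4501 to 9050 FPM in control and MUNC genomic libraries and to 8526 to 13447 FPM in MUNC spliced libraries, with Tcf21 at 0 throughout. Endothelial, leukocyte, Schwann cell and adipocyte markers (4 each) summed to at most 7.62, 5.42, 7.63 and 14.8 FPM in any library, neuronal markers to at most 89.6 FPM and smooth muscle markers to 1182 to 3507 FPM. In such bulk samples, fewer cells of a type and less RNA per cell cannot be told apart.

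Of the 9 genes, 8 passed the filter on low values (0.5 FPM in at least 3 libraries) and were tested. Dmd did not pass. In control cells, 6 of the 8 were called higher in DM3 than in GM, where 29.6% of all genes tested were called higher, and none was called lower, against 28.6% of all genes. In MUNC spliced cells 4 rose in DM3 (all genes: 17.2%) and in MUNC genomic cells 4 rose (all genes: 26.3%), again with none lower (18.4% and 25.1% of all genes). The direction was therefore the same for every called member on differentiation. Against control it was mixed. MUNC spliced cells in GM had 4 members called higher and 2 lower, against 18.2% and 17.3% of all genes, and in DM3 1 higher and 2 lower, against 22.3% and 21% of all genes. MUNC genomic cells had 1 member higher and 3 lower in GM (12.2% and 14.5% of all genes) and 1 higher and 3 lower in DM3 (19.3% and 20.9% of all genes). The median log2 change of the 8 members was 0.72, 0.46 and 0.43 for DM3 against GM in control, MUNC spliced and MUNC genomic cells, beside 0.02, -0.01 and 0.02 for all genes tested. The 7 comparisons share groups of libraries, so their counts are not independent of each other.

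**Figure D1:**
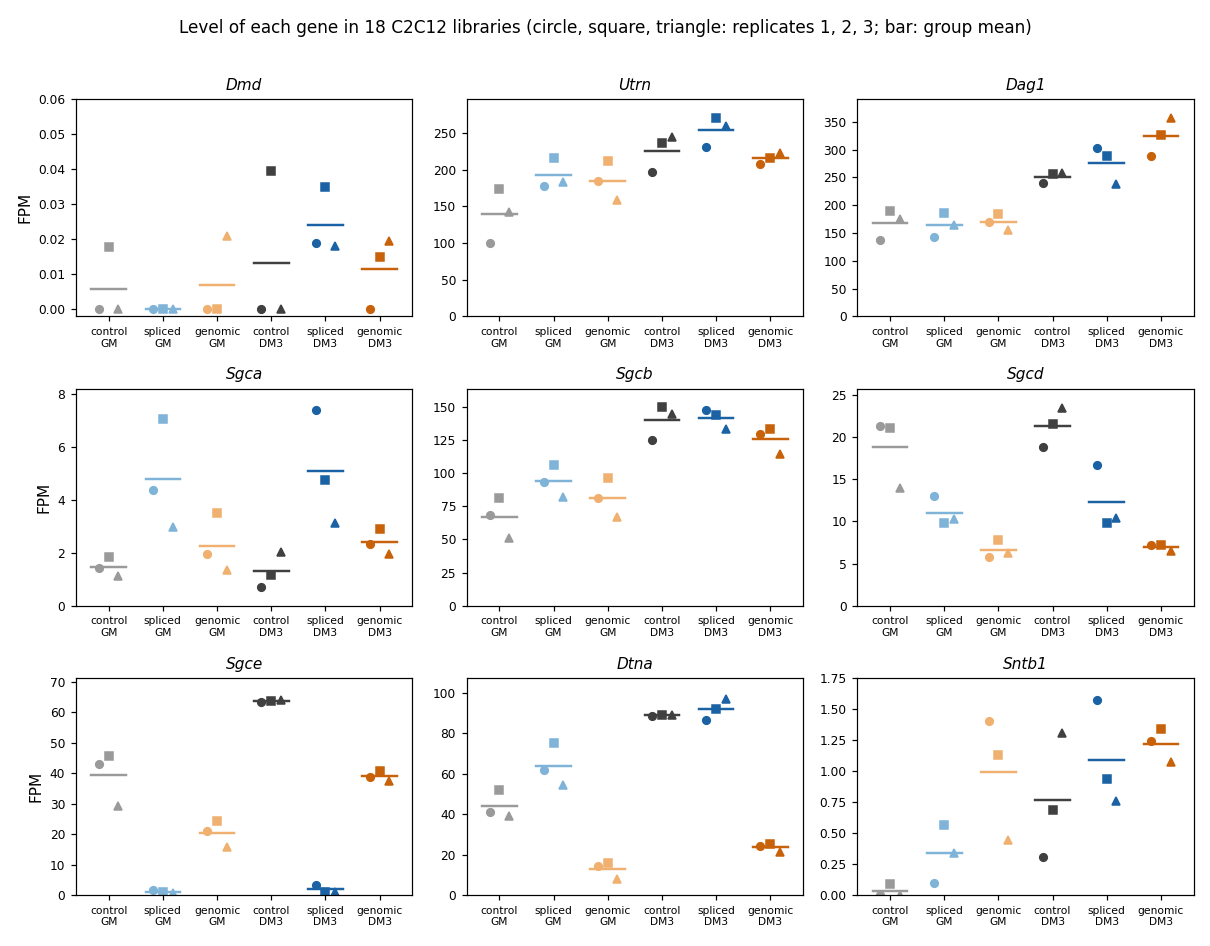
Level of each of the 9 genes in FPM (vertical axes, each starting at or just under 0 and scaled to its own gene) in the 18 libraries, grouped by line and medium on the horizontal axis; symbols are replicates and bars are group means. Dmd stays under 0.04 FPM everywhere, Sgce is near 0 in MUNC spliced cells alone, and Dtna is low in MUNC genomic cells alone.

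By level per length, the order in control GM was Dag1 at 26.4 ± 4.24, Sgcb at 16.5 ± 3.66, Utrn at 8.13 ± 2.16, Sgce at 3.71 ± 0.838, Dtna at 2.59 ± 0.411, Sgcd at 2.27 ± 0.512 and Sgca at 0.848 ± 0.204 FPM per kb (SD, n = 3 each). Sntb1 and Dmd came last, at 0.00554 ± 0.00960 and 0.000248 ± 0.000429 FPM per kb (SD, n = 3 each). Libraries of Sgce and Dtna overlapped, as did those of Dtna and Sgcd, so these neighbours in the order did not differ beyond their spread. Dag1, Sgcb and Utrn held the first 3 places in all 6 groups. The order depends on the exon length, which was taken over all annotated exons of a gene. The lower places changed with the line. Sgce held place 4 in every control and MUNC genomic group. In MUNC spliced cells it held place 7 in GM and place 8 in DM3, with Dtna in place 4 and Sgca in place 5 in both media. Some of these neighbours overlapped too. In MUNC spliced cells these were Sgce and Sntb1 in both media, Dtna and Sgca in GM, and Sgca and Sgcd in DM3. In MUNC genomic GM, Sgce overlapped Sgca.

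Dystrophin transcripts were close to absent. Dmd (ENSMUSG00000045103, GRCm38 chrX:82948870-85206141, plus strand) gave 10 reads in all 18 libraries together, with 0 to 2 reads in any library and none in 10 of them. A count of 0 allows up to 3 reads, or no more than 0.0757 FPM at the depth of any library, counting error only. Reads were 0, 1 and 0 in control GM and 0, 2 and 0 in control DM3 (replicates 1 to 3). They were 0, 0 and 0 in MUNC spliced GM and 1, 2 and 1 in MUNC spliced DM3, and 0, 0 and 1 in MUNC genomic GM and 0, 1 and 1 in MUNC genomic DM3. No difference was detectable at this depth. The nearest protein-coding gene of the table outside the locus on either side, Fthl17a at 43.5 kb and 4930595M18Rik at 1491 kb, gave no read in any library. Expressed genes lay farther out on the X chromosome. On the side of Fthl17a, Tab3, at 368 kb, ranged from 29.6 to 42.4 FPM and Gk, at 496 kb, from 8.61 to 53.2 FPM. On the other side Tmem47, at 1851 kb, ranged from 48.8 to 148.7 FPM. No exon base of Dmd is shared with another annotated gene.

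RefSeq on GRCm38.p6 lists 2 starts of Dmd, and both windows, from 250 bases before to 50 bases after the start, are shown because the gene was close to absent here; reads were counted per gene and not per start. Capitals mark the E-box CANNTG, the motif bound by MyoD, myogenin and related factors; it reads the same on both strands, and overlapping matches were counted. At least 1 match occurs in 72.3% of the 32851 windows of this length in the table.
Dmd upstream start, chrX:82948620-82948919, plus strand: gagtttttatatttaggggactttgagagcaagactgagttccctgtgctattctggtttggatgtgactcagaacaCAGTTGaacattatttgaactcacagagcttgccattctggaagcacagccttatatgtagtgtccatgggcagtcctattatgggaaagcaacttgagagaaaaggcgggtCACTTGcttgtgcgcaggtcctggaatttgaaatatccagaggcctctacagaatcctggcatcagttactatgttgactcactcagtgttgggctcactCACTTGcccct
Dmd downstream start, chrX:85048045-85048344, plus strand: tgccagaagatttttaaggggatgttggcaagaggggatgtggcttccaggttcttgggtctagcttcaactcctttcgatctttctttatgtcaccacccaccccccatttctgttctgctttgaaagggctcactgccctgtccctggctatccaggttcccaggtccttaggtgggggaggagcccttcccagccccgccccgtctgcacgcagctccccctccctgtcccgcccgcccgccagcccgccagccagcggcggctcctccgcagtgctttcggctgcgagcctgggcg
The upstream window held 3 matches, a number reached by 17.6% of all windows, and the downstream window held 0. A match is a description of the letters and not evidence of binding. Windows of 6 of the 9 genes were searched.

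Utrophin, which can take the place of dystrophin at the membrane, was abundant in every library. Utrn (ENSMUSG00000019820, chr10:12382188-12869365, minus strand), whose exons total 17108 bases beside 23801 for Dmd, gave 5892 to 15562 reads per library. Its level was 100.6, 174.4 and 142.1 FPM in control GM and 197.6, 236.4 and 244.1 FPM in control DM3 (replicates 1 to 3), and the groups did not overlap. The rise was 0.73 ± 0.16 on the log2 scale (SE, adjusted p = 0.00109). Utrn in MUNC spliced cells stood at 177.7, 215.8 and 183.3 FPM in GM and 231.2, 271.2 and 260.0 FPM in DM3. In MUNC genomic cells it stood at 185.0, 211.4 and 158.5 FPM in GM and 207.6, 216.7 and 222.6 FPM in DM3. Neither difference between media was called (adjusted p = 0.0621 and 0.250), although with DESeq2 on recovered reads the one in MUNC spliced cells was (log2 change 0.44, adjusted p = 0.0336). In GM, Utrn in MUNC spliced cells exceeded control by 0.50 ± 0.16 (SE, adjusted p = 0.0251). This call was lost without control GM replicate 1 (0.28) or MUNC spliced GM replicate 2 (0.41), without the filter and in edgeR (adjusted p = 0.0502 and 0.0514), and the authors' deposited table gives 0.47 with an adjusted p of 0.104. The log2 difference of MUNC genomic GM from control GM, 0.44 ± 0.16 (SE, adjusted p = 0.0559), was called by DESeq2 (adjusted p = 0.0345) and not by edgeR. In DM3 the 3 lines lay between 198 and 271 FPM and neither line was called against control.

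Utrn is shown with its RefSeq window because it held more E-boxes than that of any other member searched.
Utrn, chr10:12861686-12861985, minus strand: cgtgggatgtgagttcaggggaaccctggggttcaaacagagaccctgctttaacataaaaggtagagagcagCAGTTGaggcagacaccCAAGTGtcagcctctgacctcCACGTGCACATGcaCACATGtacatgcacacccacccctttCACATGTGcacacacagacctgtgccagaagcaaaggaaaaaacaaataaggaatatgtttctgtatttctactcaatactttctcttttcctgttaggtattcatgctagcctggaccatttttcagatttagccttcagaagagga
It held 7 matches, with overlap only in the last marked stretch, and 0.177% of all windows hold at least as many. The start lies inside the annotated gene rather than at its outer end.

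Dystroglycan was higher in DM3 than in GM in all 3 lines. Dag1 (ENSMUSG00000039952, chr9:108204634-108263958, minus strand) encodes both the laminin-binding subunit and the membrane-spanning subunit. It stood at 137.8, 189.9 and 175.5 FPM in control GM and 239.3, 255.9 and 257.8 FPM in control DM3. MUNC spliced cells had 143.5, 186.8 and 164.8 FPM in GM and 302.9, 287.8 and 237.9 FPM in DM3, and MUNC genomic cells had 170.1, 183.6 and 154.4 FPM in GM and 289.2, 326.6 and 357.7 FPM in DM3. Every DM3 library was above every GM library, whatever the line. The rises were 0.59 ± 0.13, 0.74 ± 0.13 and 0.93 ± 0.13 (SE) in control, MUNC spliced and MUNC genomic cells, with adjusted p of 0.00131, 0.000577 and 3.36e-05. In GM the group means were 165 to 169 FPM. In DM3, MUNC genomic cells exceeded control by 0.36 ± 0.13 (SE, adjusted p = 0.0397). Leaving out any of the 3 control DM3 libraries, or MUNC genomic DM3 replicate 2 or 3, ended that call, with changes of 0.29 to 0.38. So did testing without the filter (adjusted p = 0.0652). The authors' deposited table gives 0.39 for this comparison, with an adjusted p of 0.00349. The interaction, which tests whether the rise differed from that in control, was not called for either line (0.15 ± 0.19 and 0.34 ± 0.19, SE).

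Epsilon-sarcoglycan, a broadly expressed relative of alpha-sarcoglycan, was nearly missing from MUNC spliced cells. Sgce (ENSMUSG00000004631, chr6:4674350-4747207, minus strand) stood at 43.1, 45.8 and 29.2 FPM in control GM and at 1.62, 0.862 and 0.757 FPM in MUNC spliced GM. In MUNC genomic GM it was intermediate, at 21.0, 24.5 and 15.8 FPM. The 3 groups did not overlap. The same order held in DM3, with 63.5, 63.9 and 64.2 FPM in control, 3.38, 1.03 and 1.08 FPM in MUNC spliced cells and 38.9, 40.6 and 37.5 FPM in MUNC genomic cells. Within MUNC spliced cells replicate 1 was the highest in both media.

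Against control, Sgce was lower in MUNC spliced cells, with fitted log2 changes of -4.28 ± 0.26 in GM and -4.62 ± 0.26 in DM3 (SE, adjusted p = 2.63e-09 and 9.86e-10). The mean level was 36.5 and 34.9 times lower, and 60.4 times lower in DM3 without MUNC spliced DM3 replicate 1. In MUNC genomic cells the fitted changes were -0.91 ± 0.26 in GM and -0.70 ± 0.26 in DM3 (SE, adjusted p = 0.0146 and 0.0393). These calls were less firm in the fits made here. The SE of 0.26 was pooled over all groups, so it also holds the spread of MUNC spliced libraries, which are not part of these 2 comparisons. In GM the call was lost with a pseudocount of 0.1 FPM (adjusted p = 0.0538) and without control GM replicate 1 or 2 or MUNC genomic GM replicate 3, with changes of -0.83 to -0.74. In DM3 it was lost without any 1 of the 6 libraries compared (-0.73 to -0.67), with that pseudocount, without the filter and in edgeR and DESeq2 fits of the recovered reads, where adjusted p ran from 0.0774 to 0.115. The authors' deposited tables give -0.90 in GM and -0.69 in DM3, with adjusted p of 0.00114 and 2.70e-11. In DM3, control libraries ran from 63.5 to 64.2 FPM and MUNC genomic libraries from 37.5 to 40.6 FPM, without overlap. MUNC spliced DM3 libraries ran from 1.03 to 3.38 FPM, a wide spread on a log scale. The part of that spread in the lost calls was not tested. MUNC spliced cells were also lower than MUNC genomic cells, by fitted changes of -3.37 ± 0.26 in GM and -3.92 ± 0.26 in DM3 (SE, adjusted p = 2.81e-08 and 2.82e-09). From GM to DM3, Sgce rose in control by 0.71 ± 0.26 and in MUNC genomic cells by 0.92 ± 0.26 (SE, adjusted p = 0.0257 and 0.00674). The rise in control was lost without control GM replicate 3 (0.51) or without any control DM3 library (0.71 each), and in 4 of the other fits (adjusted p = 0.0546 to 0.0919). For this rise, tested here with the same pooled SE, the authors' deposited table gives 0.67, with an adjusted p of 0.00184.

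Sgce and Peg10, an imprinted gene derived from a retrotransposon, are known to be expressed from the paternal copy and to share a start region. In the annotation their ends lie 0.099 kb apart, and they were looked at together after the values of Sgce had been seen. Peg10 stood at 50.2, 39.0 and 36.3 FPM in control GM and at 1.54, 0.532 and 0.631 FPM in MUNC spliced GM. In MUNC genomic GM, where Sgce was intermediate, Peg10 stood at 55.6, 39.7 and 52.7 FPM and overlapped control. In DM3 it was 18.6, 9.29 and 11.1 FPM in control, 1.33, 0.122 and 0.0904 FPM in MUNC spliced cells and 11.1, 9.81 and 12.3 FPM in MUNC genomic cells. Thus Peg10 was low in the line in which Sgce was near 0, with fitted changes of -4.52 ± 0.29 in GM and -3.25 ± 0.29 in DM3 against control (SE, adjusted p = 6.10e-09 and 2.40e-07). The 2 genes went opposite ways on differentiation in control and in MUNC genomic cells. Peg10 changed there by -1.65 ± 0.29 and -2.05 ± 0.29, respectively (SE, adjusted p = 0.000147 and 2.86e-05). Casd1, the nearest protein-coding gene on the other side at 31.0 kb, was also lower in MUNC spliced cells. Its fitted changes were -1.22 ± 0.14 in GM and -1.29 ± 0.14 in DM3 (SE), from means of 43.1 and 54.7 FPM in control. Col1a2, the next protein-coding gene on that side, was at 3076 to 4586 FPM in control GM and 5210 to 7536 FPM in MUNC spliced GM. The neighbours thus did not all go down.

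**Figure D2:**
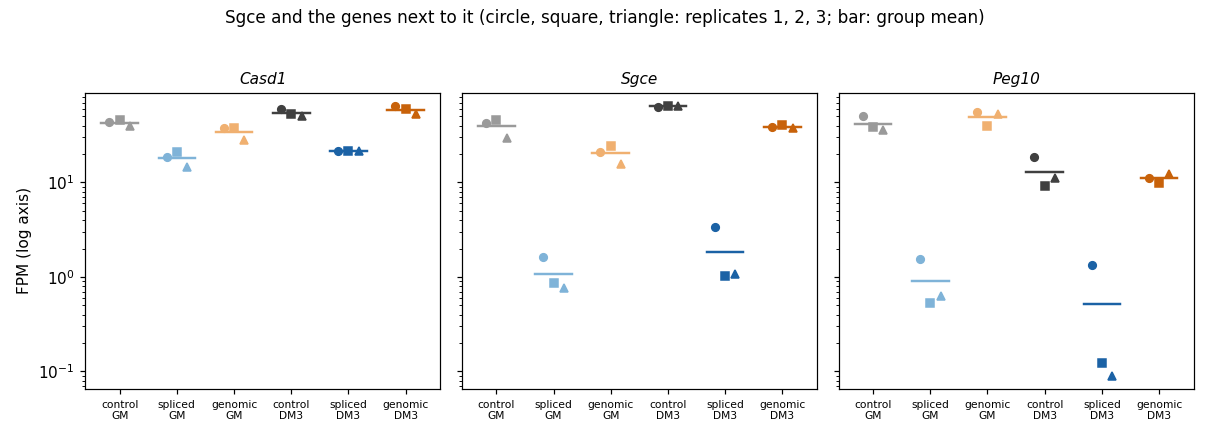
FPM (log axis) of Casd1, Sgce and Peg10 in the 18 libraries, grouped by line and medium; symbols are replicates and bars are group means. In MUNC spliced cells Sgce and Peg10 lie between 0.0904 and 3.38 FPM, below every control and MUNC genomic library, and Casd1 lies at 14.6 to 21.8 FPM.

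Alpha-sarcoglycan, the muscle-specific relative of Sgce, went the other way in the same line. Sgca (ENSMUSG00000001508, chr11:94962791-94976327, minus strand) stood at 1.43, 1.84 and 1.14 FPM in control GM and 4.37, 7.06 and 2.96 FPM in MUNC spliced GM. It stood at 0.711, 1.16 and 2.03 FPM in control DM3 and 7.40, 4.76 and 3.13 FPM in MUNC spliced DM3. The MUNC spliced libraries were above the control libraries of the same medium throughout. The log2 changes were 1.18 ± 0.30 in GM and 1.39 ± 0.30 in DM3 (SE, adjusted p = 0.00637 and 0.00146), or 3.26 and 3.92 times the mean of control. MUNC genomic cells had 1.95, 3.49 and 1.34 FPM in GM and 2.31, 2.91 and 1.95 FPM in DM3, and both groups overlapped control, with no call in the fit here. The authors' deposited table gives 0.90 for MUNC genomic DM3 against control DM3, with an adjusted p of 0.0419. Differentiation did not change Sgca detectably in any line (log2 changes -0.13 ± 0.30, 0.07 ± 0.30 and 0.10 ± 0.30, SE). Of 11 myotube markers tested, 6 were called higher in MUNC spliced GM than in control GM (18.2% of all genes). In MUNC spliced DM3 against control DM3, 11 were (22.3% of all genes), and Sgca was called higher in both. The markers also rose where Sgca was not called. In MUNC spliced DM3 against GM 11 did (17.2% of all genes). In MUNC genomic DM3, 10 markers did against GM (26.3% of all genes) and 10 against control (19.3%). Their part in the result was not tested.

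MUNC spliced cells exceeded MUNC genomic cells in Sgca by 0.82 ± 0.30 in GM and 0.80 ± 0.30 in DM3 (SE, adjusted p = 0.0425 and 0.0413), and in GM their libraries overlapped. These calls lay close to the threshold. The GM change was 0.55 without MUNC spliced GM replicate 2 and 0.61 without MUNC genomic GM replicate 3. The DM3 change was 0.53 without MUNC spliced DM3 replicate 1, and none of these was called. Leaving out any of 8 libraries ended the GM call and any of 6 the DM3 call. Some of these libraries were of groups outside the comparison. Without them the change stayed at 0.82 or 0.80, and the adjusted p was at most 0.0527 in GM and 0.0507 in DM3. In an edgeR fit of the recovered reads neither was called (adjusted p = 0.0694 and 0.0516), nor was either without the filter or with a pseudocount of 0.1 FPM. The RefSeq window of Sgca is shown because Sgca was called higher than control in MUNC spliced cells in both media. Myod1, whose protein binds E-boxes, was at most 0.221 FPM in control libraries, and stood at 8.84 to 17.9 FPM in MUNC spliced GM and 16.0 to 53.3 FPM in MUNC spliced DM3. It also stood at 1.66 to 6.99 FPM in MUNC genomic GM and 14.5 to 22.5 FPM in MUNC genomic DM3, where Sgca overlapped control. Any part of Myod1 in the level of Sgca was not tested.
Sgca, chr11:94976278-94976577, minus strand: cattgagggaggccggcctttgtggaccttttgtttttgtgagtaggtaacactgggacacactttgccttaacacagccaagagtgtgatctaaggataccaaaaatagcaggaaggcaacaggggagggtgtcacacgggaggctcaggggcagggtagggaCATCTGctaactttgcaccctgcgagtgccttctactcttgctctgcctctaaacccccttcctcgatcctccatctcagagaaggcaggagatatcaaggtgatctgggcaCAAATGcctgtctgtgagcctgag
It held 2 E-boxes, a number reached by 39.6% of all windows.

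The ratio of Sgca to Sgce, each per kb of exon, put these opposite differences in 1 number per library. It was 0.203, 0.246 and 0.238 in control GM and 0.0684, 0.111 and 0.193 in control DM3. In MUNC genomic cells it was 0.566, 0.873 and 0.519 in GM and 0.364, 0.438 and 0.318 in DM3. For MUNC spliced cells it was 16.5, 50.1 and 23.9 in GM and 13.4, 28.3 and 17.6 in DM3. Thus Sgce was the more abundant of this pair in all 12 control and MUNC genomic libraries, and Sgca in all 6 MUNC spliced libraries. The ratio was formed after the values had been seen and was not tested, and its absolute size depends on the annotated exon length.

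**Figure D3:**
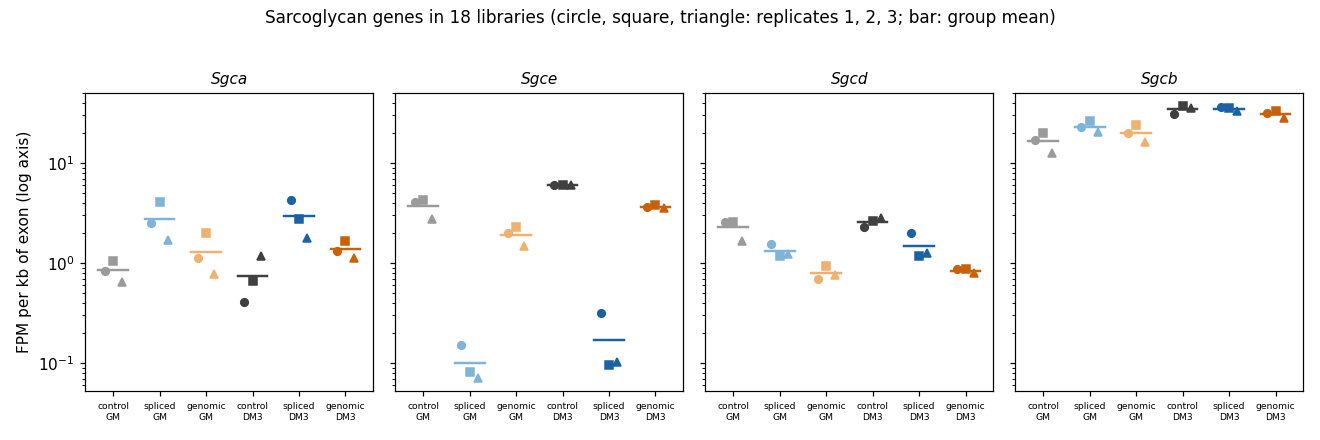
Level of 4 sarcoglycan genes in FPM per kb of exon (shared log axis) in the 18 libraries, grouped by line and medium; symbols are replicates and bars are group means. Sgce lies above Sgca in control and MUNC genomic libraries and below it in MUNC spliced libraries, and Sgcb is the highest of the 4 in every group.

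Delta-sarcoglycan was lower than control in both MUNC lines. Sgcd (ENSMUSG00000020354, chr11:46896253-47988969, minus strand) pairs with beta-sarcoglycan in the core of the subcomplex. It stood at 21.4, 21.1 and 13.9 FPM in control GM, 13.0, 9.77 and 10.3 FPM in MUNC spliced GM and 5.74, 7.78 and 6.24 FPM in MUNC genomic GM. DM3 values were 18.8, 21.6 and 23.4 FPM in control, 16.6, 9.83 and 10.3 FPM in MUNC spliced cells and 7.20, 7.14 and 6.52 FPM in MUNC genomic cells. In both media the 3 lines were ordered control, MUNC spliced, MUNC genomic, without overlap. Fitted changes against control were -0.70 ± 0.20 and -0.78 ± 0.20 for MUNC spliced cells and -1.37 ± 0.20 and -1.48 ± 0.20 for MUNC genomic cells (GM and DM3, SE), with adjusted p of 0.0106, 0.00432, 6.29e-05 and 1.47e-05. MUNC spliced cells were above MUNC genomic cells by 0.66 ± 0.20 and 0.70 ± 0.20 (SE, adjusted p = 0.0144 and 0.00798). The GM call was lost without MUNC spliced GM replicate 1 (0.55) or MUNC genomic GM replicate 1 (0.58). No difference between media was called for Sgcd (log2 changes 0.19, 0.12 and 0.08).

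Beta-sarcoglycan rose with differentiation and reached like levels in the 3 lines. Sgcb (ENSMUSG00000029156, chr5:73632749-73647790, minus strand) stood at 68.2, 81.0 and 51.4 FPM in control GM and 124.6, 149.6 and 144.8 FPM in control DM3, a rise of 1.07 ± 0.16 (SE, adjusted p = 2.61e-05). In MUNC spliced cells it went from 93.5, 106.2 and 82.0 FPM to 147.7, 143.6 and 132.9 FPM, and in MUNC genomic cells from 80.9, 96.3 and 66.5 FPM to 129.6, 133.2 and 114.4 FPM. GM and DM3 libraries did not overlap in any line, and these rises were 0.59 ± 0.16 and 0.64 ± 0.16 (SE, adjusted p = 0.00777 and 0.00285). In GM, MUNC spliced cells were above control by 0.50 ± 0.16 (SE, adjusted p = 0.0203). That call was lost without control GM replicate 3 (0.33) or MUNC spliced GM replicate 2 (0.41), and the authors' deposited table gives an adjusted p of 0.0681. In DM3 neither line was called against control, and the log2 differences were 0.02 ± 0.16 and -0.15 ± 0.16 (SE).

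**Figure D4:**
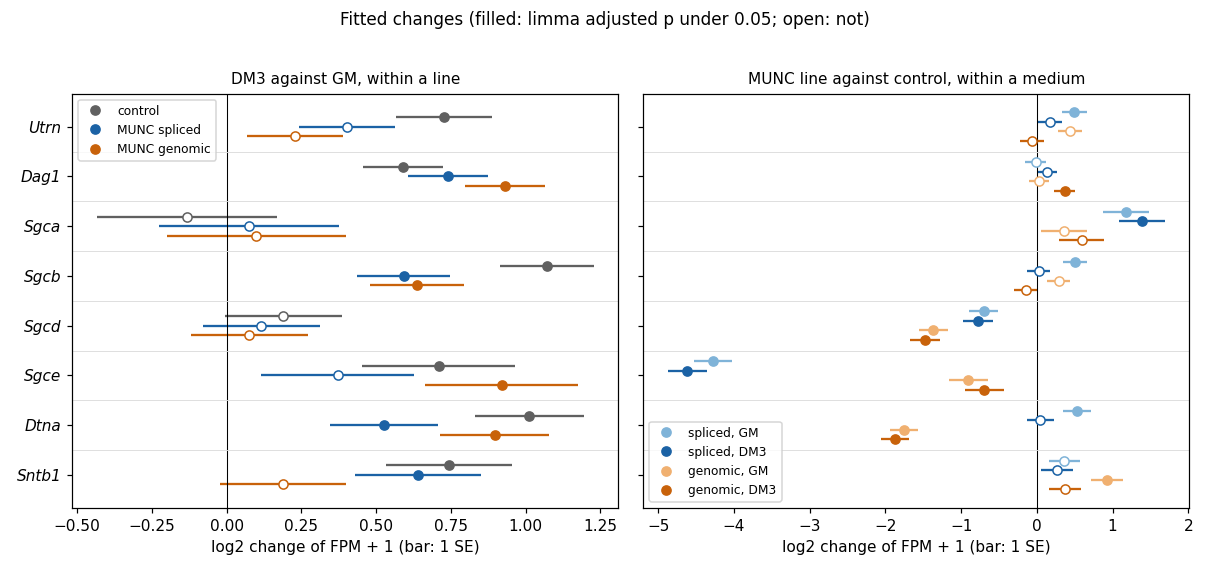
Fitted log2 changes of FPM + 1 (horizontal axes, bars of 1 SE, separate scales) for the 8 members tested, for DM3 against GM in each line (left) and for each MUNC line against control in each medium (right); filled symbols were called. On the left every filled symbol lies above 0; on the right the changes run from -4.62 for Sgce to 1.39 for Sgca, both in MUNC spliced DM3.

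Alpha-dystrobrevin, which binds dystrophin or utrophin and recruits syntrophins, was the member that separated MUNC genomic cells most clearly. Dtna (ENSMUSG00000024302, chr18:23415135-23659715, plus strand) stood at 40.9, 51.9 and 39.0 FPM in control GM, 61.9, 75.3 and 54.6 FPM in MUNC spliced GM and 14.2, 15.6 and 8.07 FPM in MUNC genomic GM. DM3 values were 88.6, 89.0 and 89.2 FPM in control, 86.8, 91.9 and 96.9 FPM in MUNC spliced cells and 24.4, 25.3 and 21.2 FPM in MUNC genomic cells. The MUNC genomic libraries were below all others of their medium. Fitted changes against control were -1.76 ± 0.18 in GM and -1.87 ± 0.18 in DM3 (SE, adjusted p = 1.73e-06 and 4.42e-07), and the difference of MUNC spliced from MUNC genomic cells was 2.29 ± 0.18 in GM and 1.92 ± 0.18 in DM3 (SE, adjusted p = 4.93e-08 and 2.93e-07). Dtna nevertheless rose on differentiation in MUNC genomic cells, by 0.90 ± 0.18 (SE, adjusted p = 0.000680), beside 1.01 ± 0.18 in control (SE, adjusted p = 0.000188). The rise of 0.53 ± 0.18 in MUNC spliced cells (SE, adjusted p = 0.0336) was lost without MUNC spliced GM replicate 1 or 3 or MUNC spliced DM3 replicate 2 or 3 (0.42 to 0.53) and without the filter (adjusted p = 0.0636). MUNC spliced GM exceeded control GM by 0.53 ± 0.18 (SE, adjusted p = 0.0324). This call was lost without control GM replicate 1 or 3 or MUNC spliced GM replicate 1 or 2 (0.41 to 0.55) and without the filter (adjusted p = 0.0623). The authors' deposited table gives 0.54 for it, with an adjusted p of 0.0275. In exons, 0.532% of the bases of Dtna are shared with another annotated gene.

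Beta-1-syntrophin, an adaptor for signalling proteins, was barely detected. Sntb1 (ENSMUSG00000060429, chr15:55636388-55906949, minus strand) gave 753 reads in all libraries together. It stood at 0, 0.0885 and 0 FPM in control GM and at 0.307, 0.691 and 1.31 FPM in control DM3. MUNC spliced cells had 0.101, 0.568 and 0.343 FPM in GM and 1.58, 0.941 and 0.759 FPM in DM3, and MUNC genomic cells had 1.40, 1.13 and 0.441 FPM in GM and 1.25, 1.34 and 1.07 FPM in DM3. Control GM was below every other group without overlap. The gap to MUNC spliced GM was small, 0.0885 beside 0.101 FPM, and control GM replicate 2 held all 5 reads of its group. Called log2 changes were 0.74 ± 0.21 for control DM3 against GM, 0.64 ± 0.21 for MUNC spliced DM3 against GM and 0.92 ± 0.21 for MUNC genomic GM against control GM (SE, adjusted p = 0.00649, 0.0264 and 0.00380). At this level the pseudocount of 1 FPM holds such changes down. MUNC spliced GM against control GM was 0.36 on this scale and not called (adjusted p = 0.193), but was called with a pseudocount of 0.1 FPM, with edgeR and with DESeq2 (log2 changes 1.66, 3.48 and 3.59). The authors' deposited table has 3.56 there, with an adjusted p of 0.0183. The rise in MUNC spliced cells was lost without MUNC spliced GM replicate 1 or 3 or MUNC spliced DM3 replicate 1 (0.48 to 0.65), without the filter and in edgeR (adjusted p = 0.0525 and 0.0641). In GM, MUNC spliced cells were below MUNC genomic cells by a fitted change of -0.56 ± 0.21 (SE, adjusted p = 0.0492), with overlapping libraries. Leaving out any of 12 libraries ended that call (-0.57 to -0.41). Those of groups outside the comparison left the change at -0.56 and moved only the adjusted p. The call was also lost in edgeR and without the filter (adjusted p = 0.0766 and 0.0896).

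A direct comparison of the overexpressing lines asked whether the spliced and genomic forms went with different levels. In GM, 3 of the 8 members tested were higher and 2 lower in the spliced line than in the genomic line, where 19.9% and 16% of all genes were called in those directions. In DM3, 3 were higher and 1 lower, where 23.4% and 20.8% of all genes were called. Dtna, Sgcd and Sgca were higher and Sgce was lower in both media, and Sntb1 was the other lower gene in GM. Dag1, Sgcb and Utrn were not called in either medium, with log2 differences from -0.23 to 0.23. Whether differentiation changed a member differently in an overexpressing line than in control was tested by the interaction. In the main limma fit no member was called for MUNC spliced cells, where 7.43% of all genes were called higher and 6.94% lower. None was called for MUNC genomic cells either, where 3.56% and 5.25% were. Unadjusted p was under 0.05 for 1 member in each, Sgcb for MUNC spliced cells (-0.48 ± 0.22) and Utrn for MUNC genomic cells (-0.50 ± 0.23, SE). A limma fit that also allowed for replicate number called Sgcb for MUNC spliced cells (adjusted p = 0.0307). Sntb1 was called with DESeq2 for both lines (-3.08 and -4.47) and with edgeR for MUNC genomic cells (-4.36), a gene with 0 or few reads in control GM.

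The remaining genes of the complex were taken from a list of 10. Of these, 6 were tested, and Sgcz, Sntg1, Sntg2 and Cav3 gave 3, 42, 2 and 10 reads in all libraries together. Sarcospan (Sspn), a membrane protein that binds the sarcoglycans, was higher in MUNC genomic cells than in control, by 1.12 ± 0.23 in GM and 0.85 ± 0.23 in DM3 (SE, adjusted p = 0.00148 and 0.00645). Neuronal nitric oxide synthase (Nos1), which the complex anchors through syntrophin, was at 9.03, 7.81 and 8.34 FPM in control DM3 and 2.18, 2.80 and 3.42 FPM in MUNC spliced DM3 (log2 change -1.32 ± 0.27, SE, adjusted p = 0.000828). Sntb2 in MUNC spliced cells exceeded control by 0.26 in each medium, calls that were lost on leaving out any of 4 libraries (0.21 to 0.27). The GM call was also lost with TMM scaling and with edgeR (adjusted p = 0.0689 and 0.0663), and the authors' deposited tables call neither (adjusted p = 0.212 and 0.133). Dtnb, at 9.57 to 16.9 FPM, was called in no comparison. In exons, 2.40% of the bases of Nos1 are shared with another gene.

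Dystroglycan binds laminin only after its sugar chain has been built, and 17 of 18 genes listed for that pathway were tested. Control DM3 against GM gave 5 higher and 6 lower, where 29.6% and 28.6% of all genes were called (median log2 change -0.07, all genes 0.02). Pomgnt2, an early transferase of the pathway, rose from 2.86 ± 0.251 to 5.25 ± 0.381 FPM (SD, n = 3; log2 change 0.70 ± 0.14, SE). Against control, MUNC spliced cells had 2 higher and 5 lower in GM (18.2% and 17.3% of all genes) and 3 higher and 5 lower in DM3 (22.3% and 21%). B4gat1, a transferase that primes the laminin-binding chain, was lower in both (-0.59 ± 0.09 and -0.54 ± 0.09, SE) and Pomgnt2 higher in both (0.87 ± 0.14 and 0.48 ± 0.14, SE). MUNC genomic cells had 1 higher and 5 lower in GM (12.2% and 14.5% of all genes) and 3 higher and 3 lower in DM3 (19.3% and 20.9%). In GM their Dolk, which makes the lipid carrier of the first sugar, changed by -0.58 ± 0.17, and in DM3 their Pomgnt2 was higher by 0.74 ± 0.14 (SE).

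Of 22 genes for matrix ligands and cytoskeletal or membrane partners, 20 were tested. Control DM3 against GM gave 8 higher and 1 lower, where 29.6% and 28.6% of all genes were called (median 0.27), led by Agrn, a proteoglycan ligand of dystroglycan, which rose from 58.5 ± 24.6 to 709 ± 65.1 FPM (SD, n = 3; log2 change 3.65 ± 0.23, SE). Desmin (Des), the muscle intermediate filament protein, rose from 24.2 ± 8.37 to 77.5 ± 13.9 FPM (SD, n = 3). MUNC genomic cells had 5 higher and 2 lower in GM (12.2% and 14.5% of all genes) and 4 higher and 3 lower in DM3 (19.3% and 20.9%). Lama2, the laminin chain of the muscle basement membrane, was at 42.1 ± 14.3 FPM in MUNC genomic GM beside 0.672 ± 0.356 FPM in control GM, and at 117 ± 22.0 FPM beside 4.11 ± 1.44 FPM in DM3 (SD, n = 3 each). The log2 changes were 4.65 ± 0.40 and 4.55 ± 0.40 (SE). Des was higher there too, by 4.25 ± 0.34 and 3.53 ± 0.34 (SE). MUNC spliced cells had 5 higher and 2 lower in GM (18.2% and 17.3% of all genes) and 6 higher and 4 lower in DM3 (22.3% and 21%), with Lama2 higher by 1.13 ± 0.40 and 1.42 ± 0.40 (SE). Ank3, an ankyrin that binds dystrophin and dystroglycan, was higher in MUNC spliced GM by 1.05 ± 0.20, and Dysf, a membrane repair protein, in MUNC spliced DM3 by 1.30 ± 0.27 (SE). Thus the line with the lowest Dtna and Sgcd had the highest Lama2 and Sspn in each medium.

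For each member tested, the other genes with the most similar pattern were sought by Pearson's r of log2(FPM + 1) over the 18 libraries, among 11028 genes averaging at least 5 FPM in some group. The libraries share 6 groups, so these are descriptions. Dtna was most like Medag and Lphn2 (r = 0.982 and 0.973), Sgce like Cystm1 and Akr1c13 (r = 0.968 and 0.961) and Sgcb like Slc30a9 and Tbc1d23 (r = 0.967 and 0.964). Utrn was most like Nfat5 and Rreb1 (r = 0.947 and 0.930), Dag1 like Ncoa1 and Tgfbr2 (r = 0.944 and 0.940) and Sgcd like Tmx4 and Zfpm2 (r = 0.941 and 0.928). Sgca was most like Col5a2 and Serinc5 (r = 0.903 and 0.884), and Sntb1, near 0 in most libraries, like Lrrc17 and Atrnl1 (r = 0.863 each). No member was among the 2 genes most like another member, since members were left out of the search.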

How the data were processed

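Polyadenylated RNA of 18 C2C12 cultures was sequenced, and the submitters' processing notes name STAR, HTSeq, DESeq2 and mm10, without versions. The deposited table holds normalized signal in FPM, gene read counts divided by a library size factor by the authors. A label of the samples calls these values FPKM, but they carry no division by gene length: dividing by the value of 1 read returned whole reads for 100% of values (within 0.05 read), and FPM summed to 946834 to 1048477 per library. Log2 fold changes and p-values of the authors' deposited tables are quoted only where named, and the deposited scores (test statistics, base means) were not used.

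Groups came from the titles; another label naming cells myoblasts or myotubes went against the title in 9 samples. A linear model (limma 3.58.1, R 4.3.3; lmFit, contrasts.fit, eBayes with trend) was fitted to log2(FPM + 1) of the 13869 genes that reached 0.5 FPM in 3 or more libraries, with 12 residual degrees of freedom, and was tested on simulated data. Alternatives were a pseudocount of 0.1, no filter, TMM scaling, a replicate block, edgeR 4.0.16 and DESeq2 1.42.0 on recovered reads, and leaving out each library. Replicates are biological per the labels, with no further detail. Members and lists were chosen with earlier results of these data known. All members were named in every comparison, with the 2 called genes of largest change per list in comparisons with control, and any other gene of the complex; some genes of the lists are not reported here. Coordinates and exon lengths are from GENCODE M21 (GRCm38, the same assembly as mm10), promoter windows from RefSeq.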

Additional observations from a re-analysis of the deposited data

How the results depend on the processing

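Every called change of a member kept its direction in every fit. Over the members' interactions and the changes called in the main setting or an alternative, another normalization, filter, pseudocount, tool or block kept direction and side of the threshold for 321 values, took 24 back over the threshold, brought 12 past it and reversed 3. Leaving out a library did so for 1003, 61, 5 and 11 values. A library of a group outside a comparison cannot alter its log2 change, only its adjusted p. For many of these values the direction was therefore fixed beforehand. Without the filter, 24893 genes were tested, and members called fell to 2 for MUNC spliced DM3 against GM, 2 for MUNC genomic DM3 against control and 3 for MUNC spliced against MUNC genomic GM, where edgeR also gave 3. On leaving out libraries these 3 counts ranged over 2 to 5, 2 to 4 and 2 to 5, and that of MUNC spliced against control in GM over 3 to 6.

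The interactions were the least stable. On leaving out a library, genes called ranged over 1063 to 2434 for MUNC spliced and 784 to 1372 for MUNC genomic cells, lowest without control DM3 replicate 3 and replicate 2, respectively. edgeR called 777 genes for MUNC genomic cells. Members called were 1 with DESeq2 in each line and 1 with edgeR for MUNC genomic cells. With TMM scaling the MUNC spliced interaction split into 1263 higher and 808 lower genes, beside 1030 and 963. Signs turned for uncalled MUNC spliced interactions of Sgcd (edgeR 0.035) and Sgce (edgeR 0.15, DESeq2 0.10), and on leaving out a library for Sgca (range -0.054 to 0.48), Sgcd (-0.30 to 0.12), Sntb1 (-0.30 to 0.11) and, for MUNC genomic cells, Sgcd (-0.21 to 0.079) and Dtna (-0.39 to 0.051). The cause was not tested.

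Same-numbered libraries correlated at r from -0.06 to 0.73 in their deviations from group means (over 0.1 in 36 of 45 pairs), and 17 of 18 libraries correlated best with their own number, a hint from the data and not the design. With the replicate block the interactions gave 3868 genes and 1 member (Sgcb, adjusted p = 0.0307) for MUNC spliced and 2265 genes for MUNC genomic cells. It also brought Utrn past the threshold in MUNC spliced DM3 against GM (adjusted p = 0.0149) and in MUNC genomic GM against control (0.0119), with Sgcb in the latter (0.0499). Depth limits Dmd and Sntb1 most.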
